A study of Mus musculus with 2 samples.

Results

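The SOCS family comprises Cish and Socs1 to Socs7, 8 genes that encode intracellular inhibitors of cytokine and growth factor signalling. They were taken by gene symbol from a deposited table of 41592 mouse genes, and each symbol matched 1 Ensembl gene. Transcript levels came from RNA-seq of a pair of YFP-positive CD4+ T cell populations, Thy1.1-YFP+ and Thy1.1+YFP+, with 1 library each. Both were sorted from CD4+ lymphocytes of spleen and lymph node of C57BL/6 mice aged 6 to 8 weeks, to a purity typically above 97%, and 3 µg of total RNA went into each library. The protocol calls both sorted populations Treg cells, that is regulatory T cells.

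All mice carried the same Foxp3 ΔCNS1-Cre-R26-YFP genotype, so both populations share it. In this system Cre is driven by Foxp3 regulatory DNA without the conserved element CNS1, and the Rosa26 reporter turns YFP on for good in a cell that has made Cre and in its progeny. YFP therefore records past as well as present Cre activity. The question put by the study is how Treg cells of thymic origin and the precursors of exFoxp3 cells, cells that have lost Foxp3, differ in their transcripts. Its design text gives 1 marker pair to both populations, so the sample titles supply the names used below. How many mice went into each sort is not given in the sources used here. With 1 library per population no difference has a replicate check and no p-value is given. The intervals below are 95% exact binomial intervals that cover counting error only.

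SOCS proteins close a feedback loop. Cytokines activate Janus kinases (JAKs) at their receptors, the kinases phosphorylate STAT transcription factors, and STATs switch on SOCS genes among their targets. The SOCS proteins then bind receptors or JAKs through an SH2 domain, and through a SOCS box they recruit elongins and cullin 5, a ubiquitin ligase that marks bound proteins for degradation. Socs1 and Socs3 also carry a short kinase inhibitory region that blocks JAK activity directly. Treg cells depend on interleukin-2 and STAT5, and in mice Socs1 is needed to keep Treg cells stable in inflammation.

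Read numbers were worked back from the deposited values, and by that estimate the libraries held 18536339 counted reads in Thy1.1-YFP+ and 18600581 in Thy1.1+YFP+ cells. All 8 genes passed the minimum of a mean of 1 FPKM (fragments per kilobase of gene length, scaled to library depth), as did 12820 genes in all, called measured here. Transcripts of T cells were abundant in both populations. Cd4 had 471 FPKM in Thy1.1-YFP+ and 327 FPKM in Thy1.1+YFP+ cells. Foxp3, the master factor of Treg cells, had 158 FPKM in Thy1.1-YFP+ and 237 FPKM in Thy1.1+YFP+ cells. As deposited, 7 of 8 Treg marker genes were lower in Thy1.1-YFP+ cells, with summed levels of 2103 FPKM in Thy1.1-YFP+ and 2489 FPKM in Thy1.1+YFP+ cells. Of 8 general T cell genes, 7 were higher in Thy1.1-YFP+ cells, with sums of 3791 FPKM in Thy1.1-YFP+ and 3087 FPKM in Thy1.1+YFP+ cells. Among all measured genes, 44.9% were lower in Thy1.1-YFP+ cells. Markers of B, myeloid, natural killer, dendritic, erythroid and CD8 T cells summed to between 2.18 and 14.7 FPKM per list in either library. Measured among them were 3 of 8 B cell, 1 of 8 myeloid, 4 of 6 natural killer, 1 of 6 dendritic, 1 of 5 erythroid and 1 of 2 CD8 genes. B cell markers summed to 14.7 FPKM in Thy1.1-YFP+ and 9.48 FPKM in Thy1.1+YFP+ cells, and myeloid markers to 6.17 FPKM in Thy1.1-YFP+ and 2.18 FPKM in Thy1.1+YFP+ cells. Itgam made 4.17 FPKM of the myeloid sum in Thy1.1-YFP+ and 0.272 FPKM in Thy1.1+YFP+ cells. Csf1r and Adgre1, defining macrophage genes, stood at 0.113 FPKM or less in both libraries. Natural killer cell markers summed to 8.37 FPKM in Thy1.1-YFP+ and 5.93 FPKM in Thy1.1+YFP+ cells. Among them Klrb1c was at 2.08 FPKM in Thy1.1-YFP+ and 0.445 FPKM in Thy1.1+YFP+ cells and Gzma at 2.09 FPKM in Thy1.1-YFP+ and 0.551 FPKM in Thy1.1+YFP+ cells. Eomes went the other way, at 2.22 FPKM in Thy1.1-YFP+ and 2.996 FPKM in Thy1.1+YFP+ cells, a ratio of 0.743 (0.576 to 0.955). For Prf1 the interval of the ratio included 1 (0.771 to 1.57). Ncr1, below the minimum for measured genes, was listed at 0 in Thy1.1-YFP+ cells and stood at 0.218 FPKM in Thy1.1+YFP+ cells. The plasma cell list summed to 160.4 FPKM in Thy1.1-YFP+ and 170.7 FPKM in Thy1.1+YFP+ cells and the stromal and endothelial list to 87.0 FPKM in Thy1.1-YFP+ and 64.3 FPKM in Thy1.1+YFP+ cells, mostly through Xbp1 and Pecam1, which T cells also make. The other measured plasma cell genes had ratios of 2.27 (2.02 to 2.55) for Prdm1 and 1.70 (1.21 to 2.41) for Sdc1, against 0.877 for Xbp1. The part that differences in cell makeup play in the SOCS values was not tested, and in bulk RNA fewer cells of a type and less RNA per cell cannot be told apart.

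Levels within the family spanned a wide range. Socs3 was highest in both libraries, at the 98.3 percentile of measured genes in Thy1.1-YFP+ and the 98.4 percentile in Thy1.1+YFP+ cells. It made up 70.1% of the summed SOCS FPKM in Thy1.1-YFP+ and 66.0% in Thy1.1+YFP+ cells. Cish came next, 6.24-fold (5.96 to 6.53) below Socs3 in Thy1.1-YFP+ and 4.57-fold (4.40 to 4.75) below it in Thy1.1+YFP+ cells. Socs1 followed in both. By the deposited FPKM, Socs4 was lowest in both libraries, near the 38.0 percentile of measured genes in each. With summed exon lengths Socs2 was lowest in both, given the smallest whole numbers of reads its values allow. With the longest coding transcript Socs6 was lowest in Thy1.1-YFP+ cells. In between, the order of FPKM was Socs7, Socs6, Socs2 and Socs5 in Thy1.1-YFP+ cells and Socs2, Socs7, Socs6 and Socs5 in Thy1.1+YFP+ cells. Neighbours in that order did not all differ beyond counting error. In Thy1.1-YFP+ cells the intervals of the ratio between neighbours included 1 for Socs7 and Socs6 (0.957 to 1.15), Socs6 and Socs2 (0.988 to 1.26) and Socs5 and Socs4 (0.967 to 1.18), and in Thy1.1+YFP+ cells for Socs7 and Socs6 (0.932 to 1.11). FPKM divides by a gene length, and the authors' lengths were estimated from their values with an assumed read multiple for each gene. For Socs3 that length was 1096 bases, the mean of its annotated transcripts, while its longest coding transcript has 2552 bases. Per kilobase of the longest coding transcript Socs3 stood at 161 in Thy1.1-YFP+ and 184 in Thy1.1+YFP+ cells. That level assumes that its reads are 4 times the smallest whole numbers the values allow; with the smallest numbers it would lie below Cish.

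**Figure D1:**
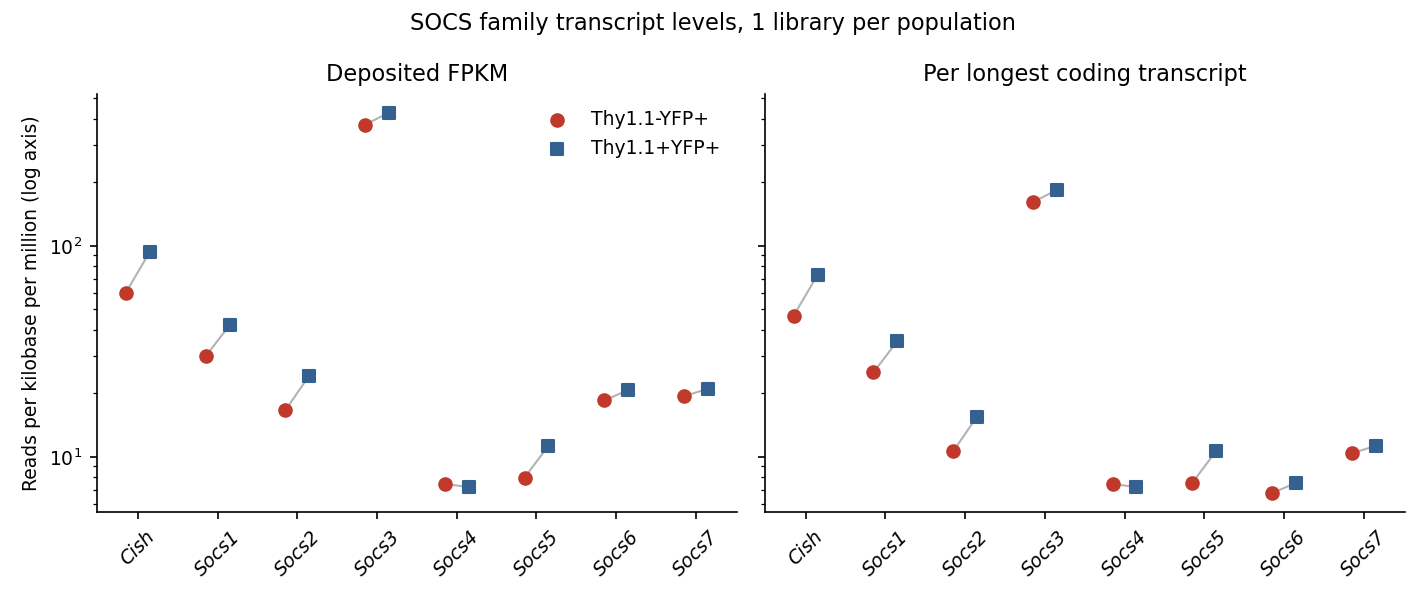
Levels of the 8 SOCS genes in Thy1.1-YFP+ cells (circles) and Thy1.1+YFP+ cells (squares), 1 library each, on a log axis in reads per kilobase scaled to library depth; grey lines join the values of a gene. At left are the deposited FPKM values and at right the same reads per kilobase of the longest coding transcript, where Socs3, with its reads taken as 4 times the smallest whole numbers, leads in both and the lower members change places.

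Across the family, transcripts were mostly lower in Thy1.1-YFP+ than in Thy1.1+YFP+ cells, by modest amounts. As deposited, 7 of 8 genes lay below 0 in log2(FPKM + 1) difference, where 44.9% of measured genes did. None was 2-fold lower, a size reached by 1.15% of measured genes, and none 2-fold higher, reached by 1.93%. Cish alone was 1.5-fold lower, which 3.85% of measured genes were, and no member was 1.5-fold higher, which 5.81% were. The counting interval of the FPKM ratio lay wholly below 1 for 7 of 8 members, against 19.0% of measured genes, and for none wholly above 1. Such intervals narrow with more reads, so that share is not matched to the members. The median measured gene had 436 reads in Thy1.1-YFP+ and 410 in Thy1.1+YFP+ cells, and every member had more in both. Of 12797 measured genes with an interval, 3470 had it wholly above 1. The median difference was -0.32 over the 8 members and 0.03 over all measured genes. The FPKM of the 8 genes summed to 535 in Thy1.1-YFP+ and 649 in Thy1.1+YFP+ cells, a ratio of 0.824. Without Socs3 the sums were 160 FPKM in Thy1.1-YFP+ and 220.3 FPKM in Thy1.1+YFP+ cells, a ratio of 0.726.

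Sorted by ratio, Cish, Socs2, Socs5 and Socs1 had ratios between 0.641 and 0.711, and Socs3, Socs6 and Socs7 had ratios between 0.875 and 0.922. Socs4 had a ratio of 1.04, and its interval of 0.946 to 1.14 included 1 and overlapped those of Socs6 and Socs7. Rescaling the libraries to an equal upper quartile moved the median of all measured genes up by 0.23, to 0.26. That rescaling multiplies every ratio of Thy1.1-YFP+ over Thy1.1+YFP+ by 1.19, pathway genes included. On that scale the differences of Socs3, Socs6 and Socs7 turned positive while those of Cish, Socs1, Socs2 and Socs5 stayed below 0. All these 7 members still lay below the median of all measured genes, as they did under every other scaling. The quartile was taken over genes above 0 in each library, 28107 in Thy1.1-YFP+ and 25709 in Thy1.1+YFP+ cells.

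**Figure D2:**
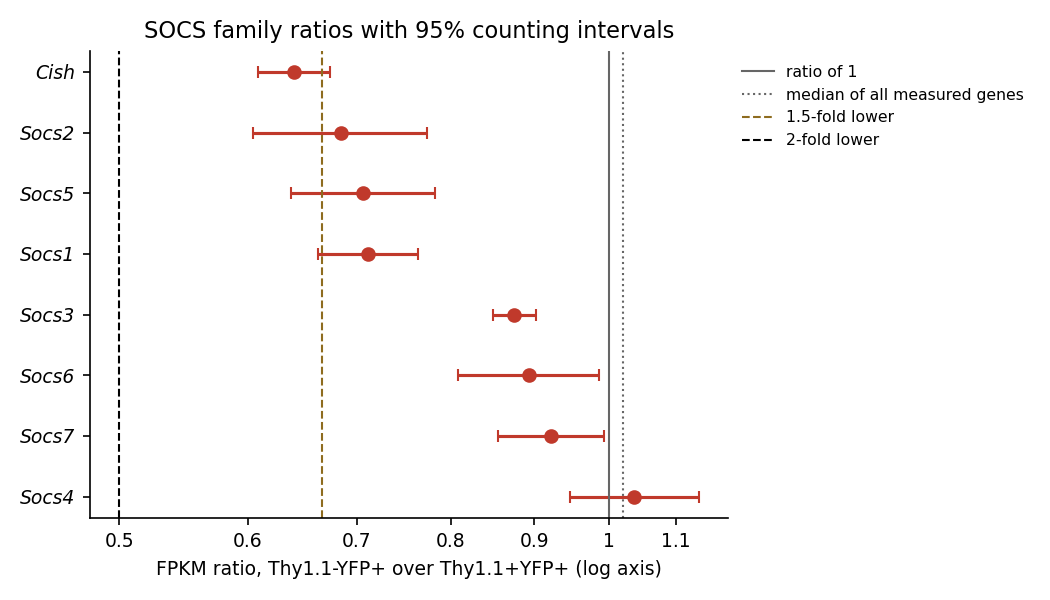
FPKM ratios of the 8 SOCS genes, Thy1.1-YFP+ over Thy1.1+YFP+ cells, on a log axis; points are ratios and bars 95% counting intervals from 1 library each. Cish, Socs2, Socs5 and Socs1 sit between 0.641 and 0.711, Socs3, Socs6 and Socs7 between 0.875 and 0.922, and Socs4 at 1.04. After rescaling by the upper quartile, Socs3, Socs6 and Socs7 lie above 1 but below the median of all measured genes.

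**Figure D3:**
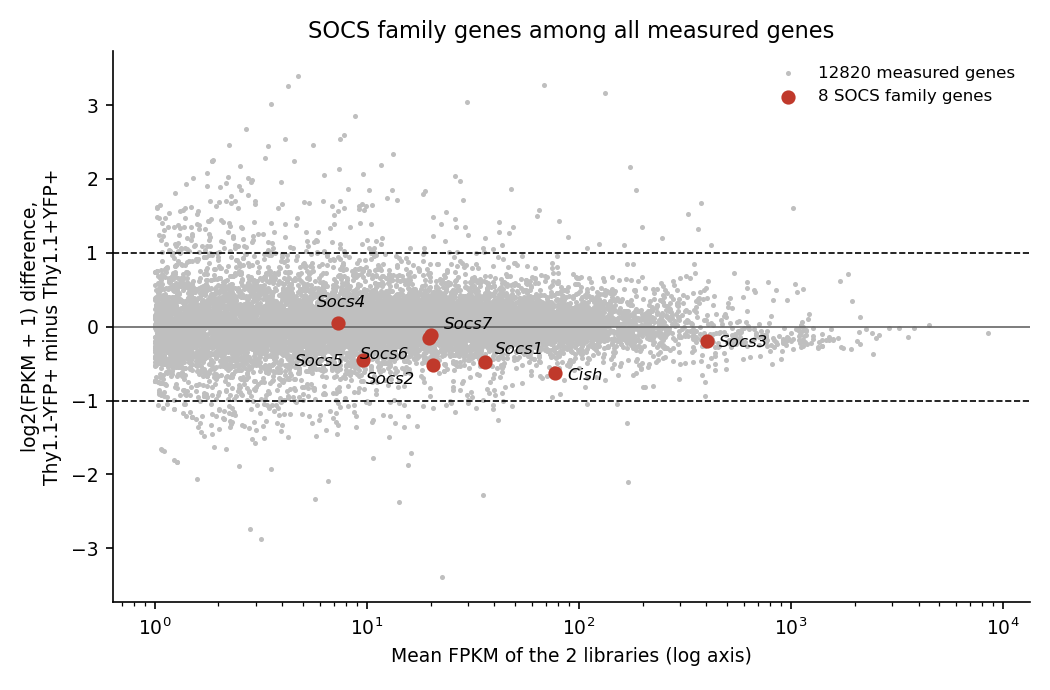
Mean FPKM of both libraries (log axis) against the log2(FPKM + 1) difference, Thy1.1-YFP+ minus Thy1.1+YFP+, for 12820 measured genes (grey) and the 8 SOCS genes (red); dashed lines mark 2-fold. All 8 lie within 2-fold, with Cish lowest at -0.63. After rescaling by the upper quartile, Socs3, Socs6 and Socs7 lie above 0 but below the median of all measured genes.

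Cish encodes the first SOCS protein found, which STAT5 induces after interleukin-2 and which occupies receptor sites that STAT5 would bind. It stood at 60.1 FPKM in Thy1.1-YFP+ and 93.8 FPKM in Thy1.1+YFP+ cells, from 2465 and 3861 reads. That was a ratio of 0.641 (0.609 to 0.674), the lowest of the family, and 3.31% of measured genes had a lower difference. Pseudogene Gm17040 and antisense gene Gm17041 overlap exons of Cish on the other strand, and whether counting used strand is not given in the sources used here. Gm17040 was at 0.675 and 0.673 FPKM in Thy1.1-YFP+ and Thy1.1+YFP+ cells, and Gm17041 was listed at 0 in both.

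Promoter windows, from 250 bases before to 50 bases after the annotated start, were found in RefSeq (GRCm38.p6) for Cish, Socs1, Socs3 and Socs4, 4 of the 8 genes. Of these, the windows of Cish, Socs1 and Socs3 are shown, because they held matches to the motifs given below. Whether these matches drive the genes was not tested. No window was available for Socs2, Socs5, Socs6 and Socs7 in the source used. The files use another build, mm9, so these windows were matched by symbol. Windows were searched on both strands for TTCNNNGAA, the palindrome that STAT dimers bind, for the wider TTCNNNNGAA that STAT6 prefers, and for GAAANNGAAA, a core of interferon response elements bound by IRF factors. Of 32851 windows for 27025 genes, 8.30% held the first, 6.95% the second and 3.44% the third. Capitals mark the matches.
Cish promoter, chr9:107296409-107296708, plus strand: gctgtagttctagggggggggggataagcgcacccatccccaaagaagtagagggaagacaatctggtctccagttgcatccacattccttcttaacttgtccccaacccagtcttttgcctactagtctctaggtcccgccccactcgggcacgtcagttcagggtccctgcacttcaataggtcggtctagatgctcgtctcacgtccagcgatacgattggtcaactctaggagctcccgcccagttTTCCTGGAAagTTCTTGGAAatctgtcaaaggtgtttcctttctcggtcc

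The Cish window held TTCCTGGAA at bases 1 to 9 and TTCTTGGAA at bases 12 to 20 after the start, counted from the first base after the 250 upstream bases. Holding at least 2 such STAT matches was found in 0.457% of windows. No match to the other motifs was present in the window.

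Socs1 encodes the JAK inhibitor that restrains interferon-gamma and interleukin-2 signals in T cells. Its level was 29.9 FPKM in Thy1.1-YFP+ and 42.1 FPKM in Thy1.1+YFP+ cells. The ratio was 0.711 (0.663 to 0.763), from 1354 and 1910 reads, and 5.85% of measured genes had a lower difference. These read numbers assume a length of 2440 bases. With the smallest whole numbers the values allow, the interval was 0.644 to 0.786.
Socs1 promoter, chr16:10785487-10785786, minus strand: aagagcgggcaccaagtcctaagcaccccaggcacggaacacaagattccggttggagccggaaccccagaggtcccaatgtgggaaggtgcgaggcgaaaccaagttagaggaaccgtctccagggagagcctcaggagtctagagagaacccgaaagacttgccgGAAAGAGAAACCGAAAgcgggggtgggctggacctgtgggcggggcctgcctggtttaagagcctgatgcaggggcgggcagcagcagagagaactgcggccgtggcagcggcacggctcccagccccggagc

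In this window GAAANNGAAA occurred as GAAAGAGAAA at bases -83 to -74 and as GAAACCGAAA at bases -77 to -68, which overlap. Windows with at least 2 such matches made up 0.225% of all. Neither STAT motif was present in it.

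Socs1 is also known in mouse Treg cells as a target of miR-155, a microRNA that Foxp3 induces. The mature microRNA (RefSeq) and its match in the Socs1 transcript (GENCODE M21) are shown, with the seed, bases 2 to 8, and its complement in capitals.
mmu-miR-155-5p: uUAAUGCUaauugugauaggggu
Socs1 match: tgccgctgtgccgcAGCATTAa

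The match begins 20 bases after the stop codon, counted at the first capital. Among the longest coding transcripts of the 8 members, such a seed match after the stop codon was found once in Socs1 and once in Socs6, and in 7.89% of 21842 coding genes. Mir155hg, the host transcript of miR-155, stood at 10.97 FPKM in Thy1.1-YFP+ and 9.66 FPKM in Thy1.1+YFP+ cells, from 267 and 236 reads. Its ratio of 1.14 had an interval that included 1 (0.949 to 1.36). Mature miR-155 was not analysed here.

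Socs2, best known as a brake on growth hormone and, like Cish, a STAT5 target, stood at 16.6 FPKM in Thy1.1-YFP+ and 24.3 FPKM in Thy1.1+YFP+ cells. With 437 and 641 reads, which assume a length of 1419 bases, it had the fewest of the family. With the multiple nearest its summed exon length its reads would be more and the interval 0.653 to 0.716. The ratio was 0.684, with an interval of 0.604 to 0.774 that overlaps those of Cish, Socs1 and Socs5. Its difference of -0.52 was the second lowest, and 4.90% of measured genes had a lower one.

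Socs3, which binds the interleukin-6 receptor chain gp130 and limits STAT3, was abundant in both populations. It stood at 375 FPKM in Thy1.1-YFP+ and 428 FPKM in Thy1.1+YFP+ cells, a ratio of 0.875 (0.849 to 0.903) from 7616 and 8732 reads. With the smallest whole numbers the values allow, the interval was 0.823 to 0.931. Of measured genes, 19.4% had a lower difference, and after rescaling by the upper quartile the difference was 0.06 and not -0.19.
Socs3 promoter, chr11:117969317-117969616, minus strand: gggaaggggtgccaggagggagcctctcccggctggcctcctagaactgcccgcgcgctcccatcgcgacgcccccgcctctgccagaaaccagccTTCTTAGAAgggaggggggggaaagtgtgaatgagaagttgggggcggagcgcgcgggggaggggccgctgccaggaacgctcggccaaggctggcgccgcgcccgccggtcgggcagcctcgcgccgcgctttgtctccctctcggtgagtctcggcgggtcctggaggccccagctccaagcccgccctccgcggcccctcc

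A single STAT match, TTCTTAGAA, was found at bases -154 to -146 of this window, and none of the others. The Socs4 window held no match to any of the 3 motifs.

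Socs4 and Socs5, close relatives with long amino-terminal regions that are known as brakes on the epidermal growth factor receptor, differed from each other. Socs5 stood at 7.97 FPKM in Thy1.1-YFP+ and 11.3 FPKM in Thy1.1+YFP+ cells, a ratio of 0.706 (0.638 to 0.782) from 649 and 922 reads. Socs4 stood at 7.45 FPKM in Thy1.1-YFP+ and 7.18 FPKM in Thy1.1+YFP+ cells. Its interval included 1, so no difference was detectable at 949 and 918 reads. It was the sole member above 0 as deposited, at 0.05, near the median of all measured genes.

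Socs6 and Socs7 form the remaining pair; Socs6 binds the receptor Kit and the T cell kinase Lck, and Socs7 binds the adaptor Nck. Socs6 stood at 18.5 FPKM in Thy1.1-YFP+ and 20.7 FPKM in Thy1.1+YFP+ cells, a ratio of 0.893 (0.808 to 0.986). Socs7 stood at 19.4 FPKM in Thy1.1-YFP+ and 21.03 FPKM in Thy1.1+YFP+ cells, a ratio of 0.922 (0.855 to 0.993). Their intervals ended just below 1, and on the upper quartile scale their differences were 0.09 and 0.13, not -0.16 and -0.11. Of all measured genes, 23.1% had a lower difference than Socs6 and 28.3% a lower one than Socs7.

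The rest of the pathway is described by 12 lists holding 114 different genes, 99 of them measured. Of these, 48 lay below 0, and 1 was 2-fold lower and 1 was 2-fold higher in Thy1.1-YFP+ cells. Their median difference was 0.01, close to that of all measured genes. Among all measured genes, 44.9% lay below 0, 1.15% were 2-fold lower and 1.93% were 2-fold higher. The common gamma chain receptors, which signal through JAK1 and JAK3, had 6 of 8 members below 0 and a median of -0.30, which was -0.04 after rescaling by the upper quartile. Il2ra, the alpha chain of the interleukin-2 receptor, was the 2-fold lower gene by the log2(FPKM + 1) rule. It stood at 98.8 FPKM in Thy1.1-YFP+ and 205 FPKM in Thy1.1+YFP+ cells. Il15ra had a ratio of 0.685 (0.603 to 0.777) and Il2rb, the beta chain that interleukin-2 and interleukin-15 share, 0.729 (0.715 to 0.744). Il9r, the interleukin-9 receptor, was the 2-fold higher gene, at 21.8 FPKM in Thy1.1-YFP+ and 5.96 FPKM in Thy1.1+YFP+ cells.

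Among the kinases, Jak1, Jak3 and Jak2 had ratios of 1.03, 1.03 and 0.820, and Tyk2 had 1.21, with 1 of 4 below 0 and a median of 0.04. STAT factors went both ways, with 4 of 7 below 0 and a median of -0.01. Stat5a stood at 145 FPKM in Thy1.1-YFP+ and 225 FPKM in Thy1.1+YFP+ cells, a ratio of 0.645 (0.626 to 0.666) close to that of Cish. Its neighbour Stat5b had a ratio of 0.859 (0.837 to 0.882). Stat3, the factor that Socs3 limits, had a ratio of 0.667, while Stat4, used by interleukin-12, had 1.34. Stat2 and Stat6 had ratios of 1.14 and 0.992.

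STAT5 response genes had 9 of 12 members below 0, none 2-fold lower and a median of -0.14, which was 0.11 after rescaling by the upper quartile. Bcl2l1, whose product Bcl-xL protects T cells from apoptosis, had a ratio of 0.623, its relative Bcl2 one of 0.666 and the growth regulator Myc one of 0.625. Pim1, a kinase induced by STAT5, stood at 410.5 FPKM in Thy1.1-YFP+ and 402 FPKM in Thy1.1+YFP+ cells, so members of this list differed among themselves. Osm, a cytokine gene, had the highest difference of the list, at 0.10.

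Other receptors on which SOCS proteins act were mixed. In the gp130 family 2 of 5 measured members lay below 0, and Il6st, gp130 itself, had a ratio of 0.867 (0.843 to 0.892). Il11ra1 had a ratio of 0.773, Il6ra of 1.18 and Il27ra of 1.13, and the median was 0.12. Interferon and interleukin-12 receptors had 6 of 8 below 0 and a median of -0.12, which was 0.08 after rescaling by the upper quartile. Ifngr2 and Ifngr1, the chains of the interferon-gamma receptor that Socs1 restrains, had ratios of 0.685 and 0.753, Ifnar2 had 0.848 and Il12rb1 had 1.595. Growth factor receptors and their adaptors had 4 measured members of 12, all below 0, with a median of -0.62 that was -0.37 after rescaling by the upper quartile, -0.43 with a pseudocount of 5 and -0.04 over the whole list with no filter. They were Kit, at 46 reads in Thy1.1-YFP+ and 129 in Thy1.1+YFP+ cells with a ratio of 0.358 (0.2498 to 0.505), Irs2 at 0.5996, Igf1r at 0.689 and Insr at 0.906. The difference of Kit, -0.98 with the pseudocount of 1, fell just short of the 2-fold rule, though its ratio was below that of Il2ra. Ghr, the growth hormone receptor that Socs2 controls, stood at 0.364 FPKM in Thy1.1-YFP+ and 0.330 FPKM in Thy1.1+YFP+ cells, from 11 and 10 reads.

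The 8 genes listed for the ubiquitin ligase that SOCS boxes recruit, not all of them its parts, had ratios from 0.897 for Arih2 to 1.18 for Ube2f. Of their differences, 3 lay below 0. The median was 0.13, and 0.38 after rescaling by the upper quartile. Intervals lay above 1 for the elongin Elob (1.04 to 1.23), the ring finger proteins Rnf7 (1.05 to 1.25) and Rbx1 (1.02 to 1.28) and the conjugating enzyme Ube2f (1.07 to 1.31), and below 1 for Arih2 (0.832 to 0.966). Intervals included 1 for the other elongin, Eloc (0.965 to 1.17), and for the cullins Cul5 (0.896 to 1.06) and Cul2 (0.908 to 1.08). Among 12797 measured genes with an interval, it lay wholly above 1 for 3470 and wholly below 1 for 2429. Inhibitors of JAK and STAT outside the family had 8 of 11 measured members above 0 and a median of 0.17. Among all 12820 measured genes, 7070 lay above 0. Ptpn11, a phosphatase, had a ratio of 1.26, Pias3 of 1.17, Ptprc, the phosphatase CD45, of 1.16, and Pias2 of 0.903. The difference between these lists and the SOCS family has no replicate check.

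**Figure D4:**
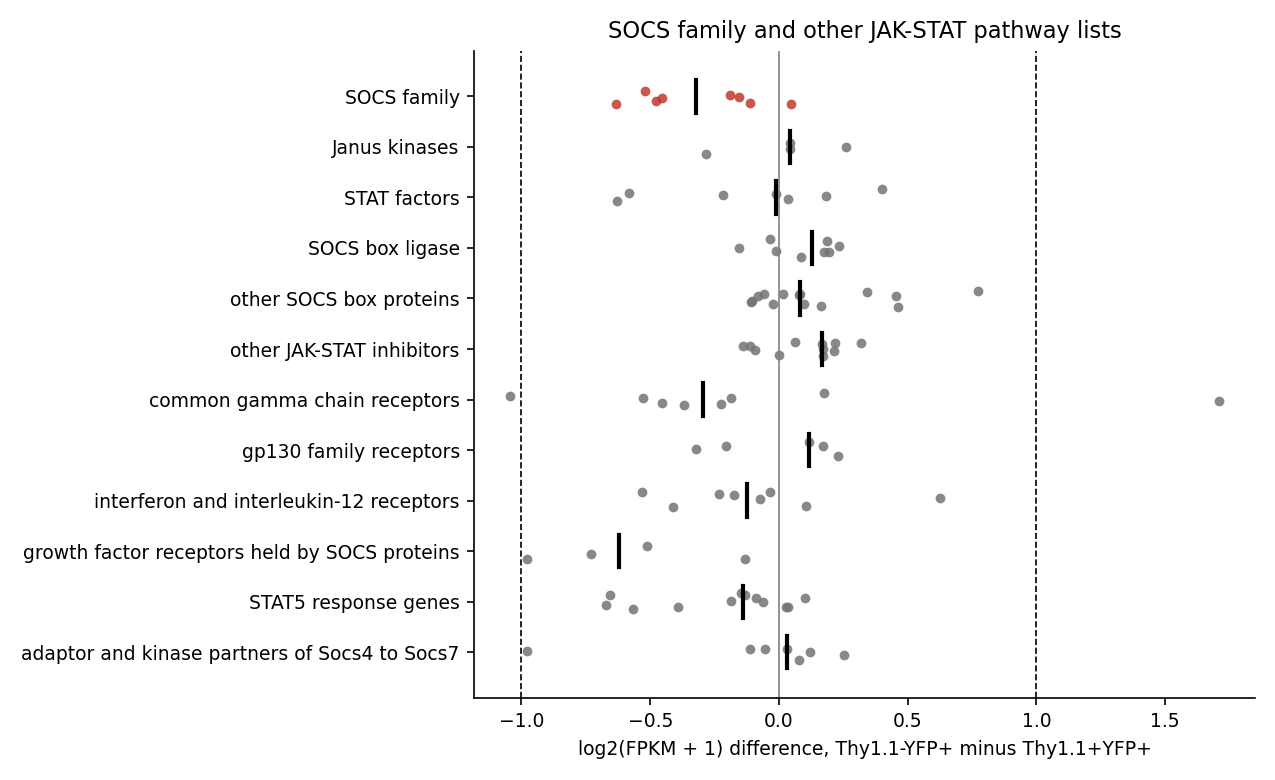
log2(FPKM + 1) differences, Thy1.1-YFP+ minus Thy1.1+YFP+, of the SOCS genes (red) and of measured members of the pathway lists named at the left (grey); each point is a gene, spread vertically for visibility, black bars are medians and dashed lines mark 2-fold. The SOCS median is -0.32, next to -0.30 for common gamma chain receptors (-0.08 and -0.04 after rescaling by the upper quartile) and 0.17 for other JAK-STAT inhibitors; medians of STAT factors, STAT5 response genes and interferon receptors turn positive after rescaling by the upper quartile.

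**Figure D5:**
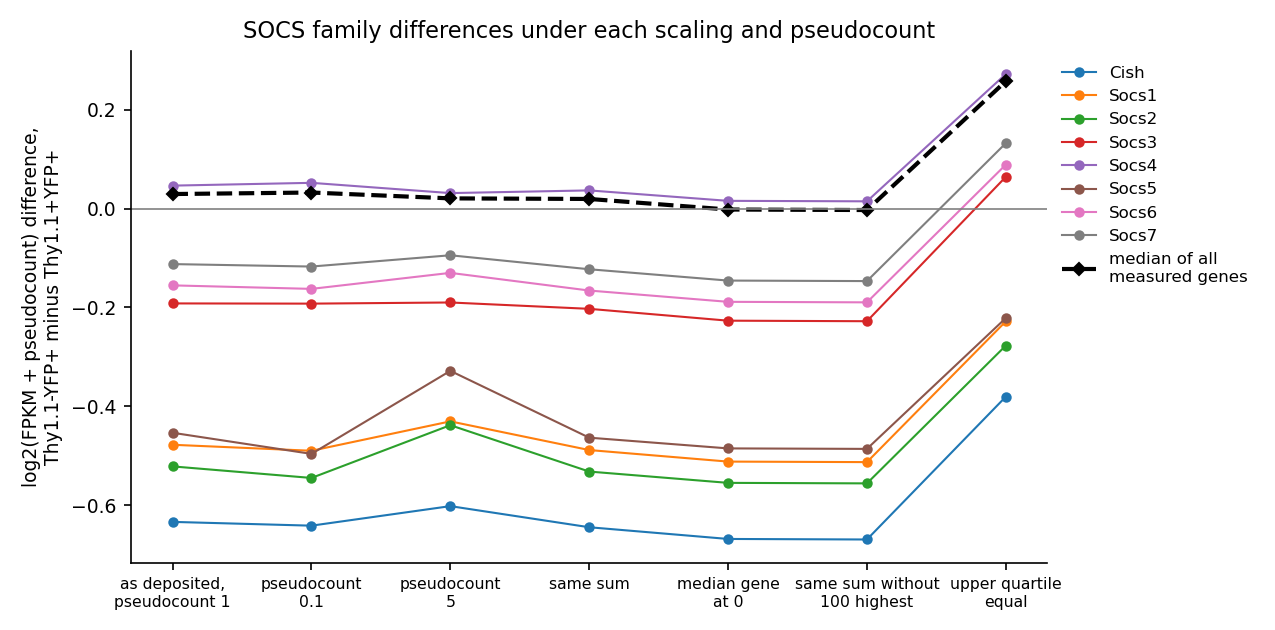
Differences of the 8 SOCS genes (lines) on the log2(FPKM + pseudocount) scale, Thy1.1-YFP+ minus Thy1.1+YFP+, under each pseudocount and rescaling, with the median of all measured genes dashed. All lines move up with the median gene under the upper quartile, where Socs3, Socs6 and Socs7 pass 0 and Cish stands at -0.38. Every member but Socs4 stays below the dashed median throughout.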

How the data were processed

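RNA-seq was done on total RNA of Thy1.1-YFP+ and Thy1.1+YFP+ cells, 1 NEBNext Ultra library each, per the labels' protocols. The authors deposited FPKM values per Ensembl gene, and N and P in the column names were read as Thy1.1-negative and Thy1.1-positive. TopHat2 2.0.12, Bowtie2 2.2.3, HTSeq 0.6.1 and the build mm9 are named in the submitters' processing notes; the annotation, any filter and the use of strand are unstated there and in the labels. Symbols from GENCODE M21 matched 96.8% of rows. No coordinates of the files are used.

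Deposited values of 23442 genes above 0 in both libraries are ratios of whole numbers times 1.003, within 2e-12. Whole reads were therefore recovered up to a whole-number multiple per gene. Totals came from the most frequent total implied by summed exon lengths, and each gene's multiple was estimated from the mean length of its annotated transcripts. The implied length lay within 1 base of that mean for 54.4% of measured genes. Among the members it lay further off for Socs1, Socs4, Socs5 and Socs6. Exact Clopper-Pearson intervals at 95% of a gene's share of reads gave intervals of the FPKM ratio; they leave out variation between mice, sorts and library preparations, and PCR copies. Differences are log2(FPKM + 1), Thy1.1-YFP+ minus Thy1.1+YFP+, which understates changes of low genes, with a 2-fold rule and a 1.5-fold rule among genes whose mean FPKM reached 1. There is no test, because each group has 1 library. Recovery, intervals and rule were checked on simulated data. That simulation was given the true gene lengths, so it did not check the choice of each gene's multiple.

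All 8 members are named. From each list, the largest, the smallest and up to 2 more of the largest differences are named, and Janus kinases and STAT factors; Il6st, Pim1, Ghr, Mir155hg and single cell type markers were added after their values were seen. The members and the lists, which cover receptors, kinases, STAT factors, STAT5 response genes, the SOCS box ligase, other SOCS box proteins, other inhibitors, partners and cell type markers, were chosen with earlier results of these data known. Some genes and 1 of the pathway lists are counted in the totals but not reported here. Alternatives were pseudocounts of 0.1 and 5, other filters and fold rules, 4 rescalings and other read multiples; 2 further gene lengths were chosen after seeing the data. Python 3.11.15 with numpy 2.4.6, pandas 2.3.3, scipy 1.17.1 and matplotlib 3.10.9 was used.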

Additional observations from a re-analysis of the deposited data

How the results depend on the processing

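Cish, Socs1, Socs2 and Socs5 were lower in Thy1.1-YFP+ than in Thy1.1+YFP+ cells under both other pseudocounts and all 4 rescalings. Socs4 stayed above 0 under all of them, but near the median of all measured genes, and its counting interval included 1 (0.946 to 1.14). Rescaling by the upper quartile gave 0.064 for Socs3, 0.089 for Socs6 and 0.13 for Socs7, a SOCS median of -0.079, and medians of 0.24 for STAT factors, 0.078 for interferon and interleukin-12 receptors and 0.11 for STAT5 response genes. It raises every gene by about the same amount, by construction. Every member but Socs4 lay below the median of all measured genes on that scale and under all other settings. On that scale 0 pathway genes were 2-fold lower and 2 higher, and of all genes 82 were lower and 398 higher. A pseudocount of 0.1 gave 2 pathway genes lower, and 293 lower and 402 higher genes in all; a pseudocount of 5 gave 19 and 72. Centring on the median gene and leaving the 100 highest genes out of the sum each gave 2 pathway genes lower, and medians of -0.00073 and -0.0018 for the adaptor and kinase partners. With no filter the gp130 family median was -0.037. Where the mean FPKM had to reach 5, 60 genes were lower and 107 higher, and of protein-coding genes 58 were lower and 190 higher. The 1.5-fold rule gave 1 SOCS gene lower (Cish), 6 pathway genes lower and 4 higher, and 493 lower and 745 higher genes in all; the 4-fold rule gave 0 and 0 pathway genes and 9 and 31 in all. With both other read multiples, every interval end of the 8 members kept its side of 1. Of 48 member differences under alternatives, 40 moved by less than the half-width of their counting interval.

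With a single library per population, no value here separates the populations from the particular mice, sort or library. The column names decide the direction of every difference. Which scale is right was not tested. No paired analysis was possible because each group has 1 library.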

Other observations

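Other proteins with a SOCS box had 9 of 14 measured members above 0, where 7070 of 12820 measured genes lay, and a median of 0.08. Asb2, a substrate receptor of cullin 5 ligases, was highest, at 11.4 FPKM in Thy1.1-YFP+ and 6.24 FPKM in Thy1.1+YFP+ cells, a ratio of 1.82 (1.55 to 2.16). Spsb2 had a ratio of 1.59 (1.03 to 2.48) from 57 and 36 reads, Asb1 of 1.42 and Asb7, the lowest, of 0.911. The partners of Socs4 to Socs7 had 3 of 7 below 0 and a median of 0.03. Besides Kit these included Lck, a kinase at the T cell receptor, with a ratio of 1.19 (1.16 to 1.22), Grb2 with 1.09 and Plcg1 with 0.924.

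The order of levels depended on gene length, a choice examined after the data were seen. With summed exon lengths, Socs1 stood above Cish, at 25.1 against 20.7 reads per kilobase, scaled to depth, in Thy1.1-YFP+ cells and 35.3 against 32.3 in Thy1.1+YFP+ cells. That order assumes Socs1 reads of 2 times the smallest whole numbers the values allow. With the smallest numbers Socs1 would lie below Cish in both libraries. Socs2 was lowest with summed exon lengths, at 2.47 in Thy1.1-YFP+ and 3.62 in Thy1.1+YFP+ cells. The annotated exons of Socs2 sum to 9531 bases, against an estimated length of 1419 bases behind its FPKM. For all members but Socs1 and Socs3, levels with other lengths use the smallest whole numbers of reads that the values allow. With the longest coding transcript, Cish stayed above Socs1, at 46.7 against 25.1 in Thy1.1-YFP+ and 72.8 against 35.3 in Thy1.1+YFP+ cells. Socs6 was lowest in Thy1.1-YFP+ cells with that length, at 6.72, and Socs4 in Thy1.1+YFP+ cells, at 7.18. Socs3 was highest with all 3 lengths in both libraries, given reads of 4 times the smallest whole numbers. Gene length cancels in the FPKM ratio between libraries, so the ratios do not change with it. The differences add a pseudocount to each level before the logarithm, so their size can change with gene length.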
